A study of Mus musculus with 6 samples.

Results

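The genes described here are 9 chemokine genes (Ccl2, Ccl5, Ccl7, Ccl8, Cxcl1, Cxcl5, Cxcl10, Cxcl12 and Cx3cl1) and the interleukin-6 gene Il6, 10 of the 18820 genes that the arrays name through single-gene probe sets. They form a list of symbols drawn up with earlier results of these arrays known, and the probe set of each gene was selected on its mean level over the 6 arrays, although each of the 10 had only 1; the shares below therefore describe the list and support nothing. The arrays come from C2C12, a mouse myoblast line, differentiated in low-serum medium so that the cells form myotubes, and harvested on day 7. On day 6 they received a locked nucleic acid (LNA) oligonucleotide at 50 nM, either a silencer of miR-382-5p (3 silenced arrays) or a negative control (3 control arrays), 24 h before harvest. Both groups therefore share the transfection reagent, the oligonucleotide dose and the day of harvest, and an untransfected group was not analysed here. C2C12 is a single immortalized line and its culture holds no leukocytes by design, so responses that need immune cells are not modelled.

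Chemokines are small secreted proteins that draw leukocytes along a gradient by binding receptors with 7 membrane passes, and they are classed by the spacing of their first cysteines into CC, CXC and CX3C types. Interleukin-6 signals through its own receptor chain and the shared chain gp130 to the kinase JAK and the transcription factor STAT3. Muscle fibres and myoblasts release several of these ligands after injury or exercise, and the genes of most of them are switched on by NF-kB, by interferon-activated factors or by both. Cxcl12 differs from the others in being made steadily by stromal and muscle precursor cells.

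The oligonucleotide was directed against miR-382-5p, whose mature sequence from RefSeq (GRCm38.p6, chr12:109733781-109733802, plus strand) is shown because it is the agent that separates the groups, with its seed, bases 2 to 8, in capitals.
mmu-miR-382-5p: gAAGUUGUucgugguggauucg

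Promoter sequence was matched for 6 of the 10 genes (RefSeq, GRCm38.p6), and the 250 bases before the start of transcription are given below for the gene that differed most between the groups, Ccl8, and for the genes in which a match to the NF-kB motif was found. Each is written 5′ to 3′ on the gene's own strand. Capitals mark matches on either strand to the NF-kB motif (GGG, a purine, 2 bases of any kind, 2 pyrimidines, CC), to the interferon-stimulated response element (ISRE: GAAA, 2 bases of any kind, GAAA), to the AP-1 motif (TGANTCA) and to the TATA box (TATAAA), of which the NF-kB matches of Cxcl1 and Cxcl10 partly overlap each other.
Ccl8 promoter, chr11:82114935-82115184, plus strand: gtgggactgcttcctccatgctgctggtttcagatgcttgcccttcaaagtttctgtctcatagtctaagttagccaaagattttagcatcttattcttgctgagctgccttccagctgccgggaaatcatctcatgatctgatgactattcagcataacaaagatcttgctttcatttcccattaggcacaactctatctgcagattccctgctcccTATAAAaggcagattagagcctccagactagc
Cxcl1 promoter, chr5:90890995-90891244, plus strand: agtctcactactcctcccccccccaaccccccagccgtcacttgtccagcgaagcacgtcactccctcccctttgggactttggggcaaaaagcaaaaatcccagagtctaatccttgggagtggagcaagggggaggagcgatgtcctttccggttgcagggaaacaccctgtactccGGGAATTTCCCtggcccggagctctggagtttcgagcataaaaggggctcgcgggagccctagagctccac
Cxcl10 promoter, chr5:92348890-92349139, minus strand: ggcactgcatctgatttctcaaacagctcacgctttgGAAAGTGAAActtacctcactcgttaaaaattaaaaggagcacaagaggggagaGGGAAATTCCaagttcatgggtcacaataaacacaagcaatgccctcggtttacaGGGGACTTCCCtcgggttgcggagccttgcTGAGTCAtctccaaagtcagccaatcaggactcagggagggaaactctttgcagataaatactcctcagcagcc
Il6 promoter, chr5:30012864-30013113, plus strand: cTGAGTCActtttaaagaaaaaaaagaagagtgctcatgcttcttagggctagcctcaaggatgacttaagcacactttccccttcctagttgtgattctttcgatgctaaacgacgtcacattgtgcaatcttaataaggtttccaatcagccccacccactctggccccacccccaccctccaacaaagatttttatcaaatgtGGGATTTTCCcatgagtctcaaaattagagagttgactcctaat

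An NF-kB match lay in 3 of the 6 promoters, those of Cxcl1, Cxcl10 and Il6, and in 7.25% of 32851 RefSeq promoters searched over the same length. In Il6 it lay 44 to 35 bases before the start, in Cxcl1 71 to 61 bases before it, and in Cxcl10 at 2 places, 159 to 150 and 104 to 94 bases before it. Cxcl10 also held the only ISRE match among the 6, 213 to 204 bases before the start (2.98% of all promoters), and Cxcl10 and Il6 an AP-1 match (6.75% of all). Ccl8 and Cx3cl1 held a TATA match (12.4% of all), at 32 to 27 bases before the start in Ccl8 and 6 to 1 bases before it in Cx3cl1. The Cxcl12 promoter held no match to these 4 motifs. These are matches of letters and no measurement of binding.

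Ccl8 stood apart from the other 9 genes in size, with all 3 silenced arrays below all 3 control arrays and a mean 1.56-fold lower, but it did not pass the threshold over all genes. The means of 9 of the 10 genes were lower and that of Ccl2 was higher in silenced arrays. Levels are log2 expression values, and differences are silenced minus control on that scale. They were fitted with limma over 11292 genes whose mean level exceeded 3.87, with p-values adjusted over all of them by the Benjamini-Hochberg method. All 10 genes passed that filter. The adjusted threshold of 0.05 was passed by 0 of the 10 and by 0% of all tested genes (smallest adjusted p = 0.871 among the 10 and 0.487 over all genes). At an unadjusted p under 0.05 there was 1 of the 10, Ccl8, against 4.8% of all tested genes, made up of 1.97% lower and 2.83% higher in silenced arrays. In whole cultures such as these, fewer cells of a type and less RNA per cell cannot be told apart.

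The medians over all probe sets lay between 4.21 and 4.27 and the pairwise correlations over tested genes between 0.985 and 0.995. The deposited values had already been equalized between arrays, so like medians do not show like signal or RNA quality. The correlations run over genes of very different level and are no check of it either. The 6 myotube markers had mean levels of 9.22 to 12.25, and the 3 markers of undifferentiated myoblasts lay at 5.83 to 9.69. Probe sets differ in affinity, so levels of different genes are only a rough guide to their abundance. Of 7 leukocyte markers measured, 5 lay below the filter, among them the pan-leukocyte gene Ptprc with a mean of 2.90, while Cd68 (5.12) and Cd14 (5.33) lay above it. Their mean level per array was 3.31 to 3.59 in control and 3.45 to 3.55 in silenced arrays, and all 4 endothelial markers lay below the filter. Arrays carrying the same replicate number in both groups varied together, which adds to the spread within a group. The labels do not tell separate cultures from repeat preparations of one culture, and p-values measure only the spread between these 6 samples, technical or not. A second fit (the blocked fit) added the replicate number as a block.

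**Figure D1:**
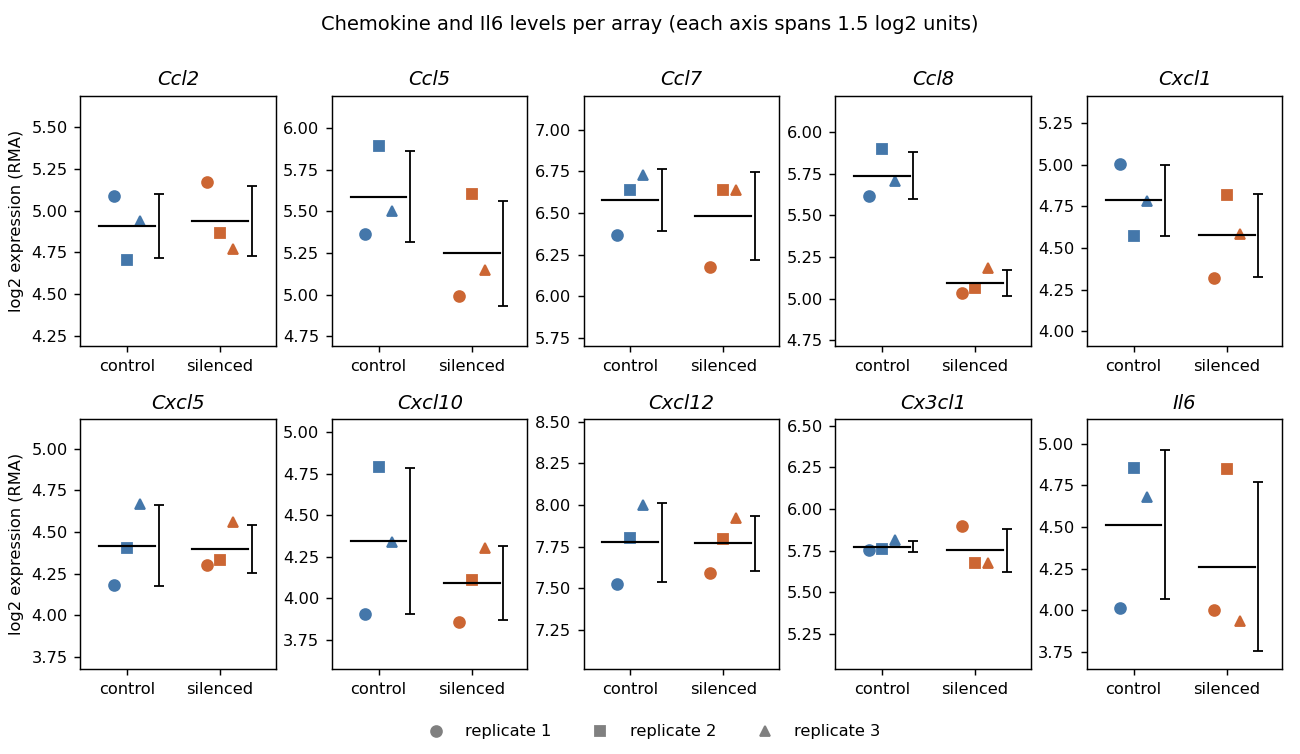
Log2 expression level (y axis) of each gene in the 3 control and 3 silenced arrays, with the marker shape giving the replicate number, the horizontal line the group mean and the bar at its side the SD (n = 3). Only Ccl8 has all silenced arrays (5.04 to 5.18) below all control arrays (5.62 to 5.90); Il6 lies between 3.94 and 4.01 in 3 arrays and between 4.68 and 4.86 in the other 3, with both groups in each set.

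Among the CC chemokines, Ccl8, whose mouse protein is a ligand of the receptor CCR8, read 5.62, 5.90 and 5.70 in control replicates 1 to 3 and 5.04, 5.06 and 5.18 in silenced replicates 1 to 3. The groups did not overlap, and the lowest control value lay above the highest silenced value; for 4.87% of all tested genes the silenced values likewise lay wholly below the control values. The means were 5.74 ± 0.14 (SD, n = 3) and 5.09 ± 0.08 (SD, n = 3), a difference of -0.64 ± 0.10 (SE) with a 95% confidence interval of -0.88 to -0.41. Its unadjusted limma p of 0.000269 was the 3rd smallest of the 11292 tested genes, with adjusted p = 0.871, and 3 against 3 arrays cannot give an exact permutation p below 0.1. In the blocked fit the unadjusted p was 0.000262 and the adjusted p 0.464. Leaving out any 1 array gave differences between -0.71 and -0.57, and within replicate numbers 1, 2 and 3 they were -0.58, -0.83 and -0.52. The annotation assigns this probe set to Ccl8 alone; whether its probes also bind related CC chemokine transcripts was not tested.

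Ccl8 lies on chromosome 11 in a run of CC chemokine genes that starts with Ccl2 and Ccl7 (order of RefSeq, GRCm38.p6). Ccl2, the main attractant of monocytes, read 5.09, 4.70 and 4.94 in control and 5.17, 4.87 and 4.77 in silenced arrays. The groups overlapped, with the highest value among the silenced and the lowest among the control arrays, and the difference was 0.026 with a 95% confidence interval of -0.30 to 0.36. Ccl7, another monocyte attractant that shares the receptor CCR2 with Ccl2, read 6.37, 6.64 and 6.73 in control and 6.18, 6.64 and 6.64 in silenced arrays. Replicate 1 was the lowest in each group, and the difference was -0.094 (95% confidence interval -0.46 to 0.27). Set against the mean of Ccl2 and Ccl7 in the same array, Ccl8 was lower by a further 0.61 log2 in silenced arrays (a difference of -0.61, exact 2-sided permutation test, p = 0.1, the smallest that 3 against 3 allows). That contrast was chosen after the values were seen, when Ccl8 was already known to separate the groups, so its p is a description and adds no support.

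Ccl5, which draws T cells and monocytes and is known as an interferon- and NF-kB-responsive gene, read 5.36, 5.89 and 5.50 in control and 4.99, 5.60 and 5.15 in silenced arrays. The groups overlapped, because silenced replicate 2 lay above control replicates 1 and 3, but each silenced array lay below the control array of its own number, by similar amounts (-0.37, -0.29 and -0.35). The difference was -0.34 ± 0.19 (SE), with limma adjusted p = 0.871. In the blocked fit the SE was 0.073, the unadjusted p 0.00285 and the adjusted p 0.464, which raised the number of the 10 genes at an unadjusted p under 0.05 from 1 to 2 (10.3% of all tested genes in that fit). Without silenced replicate 2 the difference was -0.52 and without control replicate 2 it was -0.19.

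**Figure D2:**
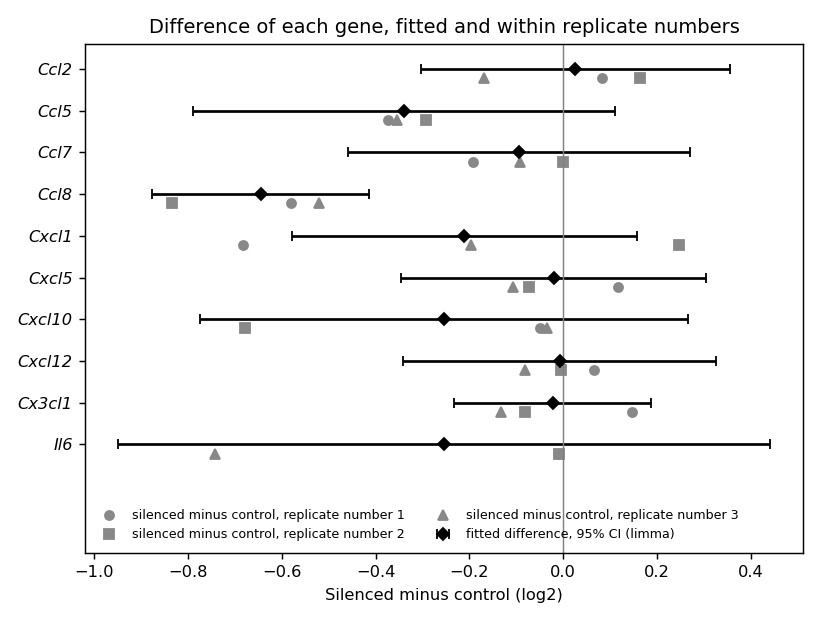
Silenced minus control difference in log2 units (x axis) for each gene (y axis), as the limma estimate with its 95% confidence interval (black) and as the difference within each replicate number (grey). The interval of Ccl8 (-0.88 to -0.41) is the only one of the 10 that does not include 0; the 3 grey points of Ccl5 lie close together (-0.37 to -0.29) inside an interval that reaches 0.11.

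Cxcl1 and Cxcl5 encode neutrophil attractants that act through CXCR2. Cxcl1 read 5.00, 4.57 and 4.78 in control and 4.32, 4.82 and 4.59 in silenced arrays. The order of the arrays was not the same in the 2 groups: within replicate number 1 the silenced array was lower (-0.68) and within number 2 it was higher (0.25). The difference was -0.21 ± 0.16 (SE), with limma adjusted p = 0.875, and it was 0.026 without both arrays numbered 1. Cxcl5 read 4.18, 4.40 and 4.67 in control and 4.30, 4.33 and 4.56 in silenced arrays. The silenced values lay inside the control range, and the difference was -0.020 (95% confidence interval -0.35 to 0.31).

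Cxcl10, an interferon-induced ligand of CXCR3 that attracts activated T cells, read 3.91, 4.79 and 4.34 in control and 3.86, 4.11 and 4.30 in silenced arrays. Control replicate 2 was the highest array and both replicates 1 the lowest, and the groups overlapped. Both replicates 1 lay close to the filter level of 3.87, where differences are narrowed. The difference was -0.25 ± 0.22 (SE), with limma adjusted p = 0.883. It rested on 1 array: without control replicate 2 it was -0.031, and within replicate numbers 1, 2 and 3 it was -0.049, -0.68 and -0.035. Without control replicate 1 it was -0.47, with an unadjusted limma p of 0.0368 and adjusted p = 0.658.

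Cxcl12, the ligand of CXCR4 that keeps stem and precursor cells in place and guides their migration, read 7.53, 7.80 and 8.00 in control and 7.59, 7.80 and 7.92 in silenced arrays. Same-numbered arrays of the 2 groups lay close together, with differences of 0.066, -0.0048 and -0.082. The overall difference was -0.0072 with a 95% confidence interval of -0.34 to 0.33, or -0.19 to 0.17 in the blocked fit. Cx3cl1, which encodes fractalkine, a membrane-bound chemokine that proteases can shed, read 5.75, 5.76 and 5.81 in control and 5.90, 5.68 and 5.68 in silenced arrays. Its whole range over the 6 arrays, 0.22, was the narrowest of the 10, and the difference was -0.023 (95% confidence interval -0.23 to 0.19).

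Il6 read 4.01, 4.86 and 4.68 in control and 4.00, 4.85 and 3.94 in silenced arrays. Of the 6 values, 3 lay near 4.0, from both replicates 1 and silenced replicate 3, and the other 3 lay between 4.68 and 4.86. The lower 3 lay below the array medians of 4.21 to 4.27 and close to the filter level of 3.87, where differences are narrowed. The difference was -0.25 ± 0.30 (SE), with limma adjusted p = 0.904, and its 95% confidence interval, -0.95 to 0.44, was the widest of the 10. Within replicate numbers 1 and 2 the groups differed by -0.010 and -0.0095 and within number 3 by -0.74. Without silenced replicate 3 the difference was -0.091, without control replicate 2 -0.083, and without silenced replicate 2 -0.55.

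As a list, the 10 genes had a median difference of -0.15, against 0.0089 over all tested genes. A lower mean in silenced arrays was seen for 9 of the 10 and for 47.3% of all tested genes. In all 3 same-numbered pairs the silenced array was lower for 5 of the 10 (Ccl5, Ccl7, Ccl8, Cxcl10 and Il6), against 15.8% of all tested genes, and higher for 0 of the 10, against 19.7%. Some of these pair differences were close to 0, among them -0.0012 for Ccl7 in number 2 and -0.0095 for Il6 in number 2. The genes were measured on the same 6 arrays and are not independent of each other.

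The median range of the 10 genes over the 6 arrays was 0.62 log2, against 0.37 over all tested genes, while that of Cx3cl1 was 0.22. These ranges include any difference between the groups. Arrays numbered 1 had a lower mean than arrays numbered 2 and 3 for 8 of the 10 genes, beside 5493 of all 11292 tested genes, the exceptions being Ccl2 (0.31 higher) and Cx3cl1 (0.094 higher). The gap was -0.57 for Il6, -0.50 for Cxcl10, -0.39 for Ccl7, -0.36 for Ccl5, -0.32 for Cxcl12 and -0.25 for Cxcl5. For Ccl8 it was -0.13 and for Cxcl1 -0.028, and these were the only 2 of the 10 genes whose difference between the groups was larger than this gap; over all tested genes the gap was the larger for 6818 of 11292. Of 4 fibroblast markers, Dpt and Dcn were lower in both arrays numbered 1 than in all others: Dpt read 6.33 and 6.47 in the 2 arrays numbered 1 and 7.43 to 7.95 in the other 4, and Dcn read 10.28 in both and 10.75 to 11.04 in the others. The third tested marker of that list, Pdgfra, read 6.21 and 6.32 against 6.24 to 6.74, and Thy1 lay below the filter, its means differing by -0.038 between number 1 and the others. The mean level of all 4 markers per array was 6.53 to 7.10 in control and 6.57 to 7.04 in silenced arrays. The part of these genes' variation in the result was not tested. The labels do not say what the replicate number stands for.

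**Figure D3:**
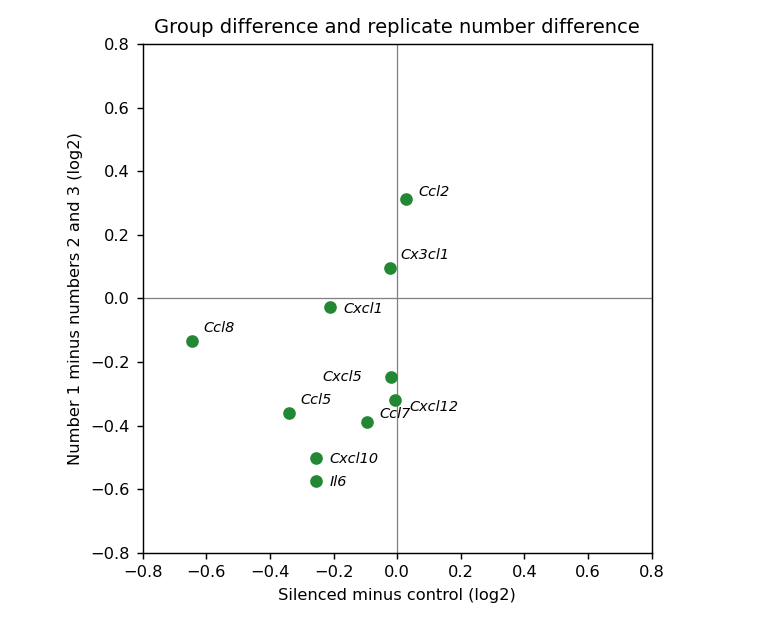
Silenced minus control difference (x axis) and difference between arrays numbered 1 and arrays numbered 2 and 3 (y axis) for the 10 genes, both in log2 units on equal scales. Ccl8 lies far to the left (-0.64) and near 0 on the y axis (-0.13), while Il6 (-0.57) and Cxcl10 (-0.50) lie lowest on the y axis.

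The mean centred level of the 10 genes was -0.070, 0.18 and 0.16 in control replicates 1 to 3 and -0.22, 0.023 and -0.080 in silenced replicates 1 to 3. The tested genes whose profile over the 6 arrays was most like it were Abraxas1 (Pearson r = 0.998), Ift81 (r = 0.993) and Scrn3 (r = 0.991). Abraxas1 encodes a subunit of a BRCA1 complex in DNA repair and Ift81 a carrier of proteins within cilia. They were picked as the highest of all tested genes over 6 points that share replicate numbers, so r is a description.

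On the receiving side, most chemokine receptors lay below the level filter. Of 14 receptor genes listed, 12 were measured and 4 passed the filter: Cxcr4, Ackr3, Il6ra and Il6st. The adjusted threshold was passed by 0 of the 4, and an unadjusted p under 0.05 was reached by 0 of them, the median of their differences being 0.073. Without control replicate 3, 1 of them had such a p, beside 272 of all tested genes. Cxcr4, the receptor of Cxcl12, read 8.05 ± 0.05 in control and 8.14 ± 0.16 in silenced arrays. Ackr3, a scavenging receptor of the same ligand, read 5.25 ± 0.25 and 5.13 ± 0.03. Il6st, which encodes gp130, read 9.64 ± 0.11 and 9.70 ± 0.11, with a difference of 0.058 (95% confidence interval -0.17 to 0.28). Ccr1, Ccr2, Ccr3, Cxcr2, Cxcr3 and Cx3cr1, receptors that leukocytes carry, lay below the filter.

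Of 26 further chemokine ligands, 25 were measured and 6 passed the filter, the median of their differences being 0.014, 2 lower and 4 higher. None of the 6 reached an unadjusted p under 0.05 in limma (0 adjusted as well). Without control replicate 1, or without both arrays numbered 1, 1 did (beside 828 and 1160 of all tested genes). Cxcl9, an interferon-gamma-induced ligand of CXCR3 like Cxcl10, read 4.05, 5.27 and 5.13 in control and 4.34, 4.54 and 4.48 in silenced arrays. As for Cxcl10, control replicate 1 was the low one of its group, and the difference was -0.36 ± 0.30 (SE, limma adjusted p = 0.878). Cxcl16 read 4.25 ± 0.08 and 4.29 ± 0.05. Cxcl13, the B cell attractant, read 6.63 ± 0.13 and 6.52 ± 0.34, and Ccl9 read 6.45 ± 0.29 and 6.49 ± 0.03. Among 8 tested cytokines of the IL-6 family and of muscle, 4 were lower and 4 higher. Of them 0 had an unadjusted p under 0.05, and 1 had in the blocked fit, beside 10.3% of all tested genes. That 1 was Il15, a cytokine made by muscle, which read 6.61, 6.97 and 7.74 in control and 6.49, 6.60 and 7.47 in silenced arrays. Its unadjusted p was 0.0184 and its adjusted p 0.464 in the blocked limma fit. In the unblocked limma fit its adjusted p was 0.917. Il33, a nuclear alarmin, read 9.17 ± 0.10 and 9.04 ± 0.16, Il34 read 5.81 ± 0.30 and 6.02 ± 0.10, and Csf1, the growth factor of macrophages, read 8.81 ± 0.27 and 8.85 ± 0.18.

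Upstream of the ligands, silenced means lay above control means for 14 of 16 tested NF-kB genes and below them for 2, beside 5951 of all 11292 tested genes above. The median of these differences was 0.077, and 0 of the 16 had an unadjusted p under 0.05. That count was 2 without silenced replicate 1 and 3 without both arrays numbered 1, beside 806 and 1160 of all tested genes. It was 1 without control replicate 1, control replicate 3 or silenced replicate 3 (828, 272 and 415 of all). Tnfaip3, which encodes the NF-kB inhibitor A20, had a control mean of 6.19 ± 0.08 and a silenced mean of 6.38 ± 0.08 (limma adjusted p = 0.871), and the groups did not overlap (6.94% of all tested genes in that direction). Rela, the main activating subunit, read 8.71 ± 0.21 and 8.95 ± 0.12, and Nfkbib, an inhibitor, 8.14 ± 0.05 and 8.20 ± 0.07. Relb, of the non-canonical branch, read 5.27 ± 0.19 and 5.14 ± 0.20. In the blocked fit 2 of the 16, Rela and Nfkbiz, both higher, had an unadjusted p under 0.05 (0.0228 and 0.0380), beside 10.3% of all tested genes in either direction. In both limma fits 0 of the 16 passed the adjusted threshold.

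Among the JAK, STAT, SOCS and IRF genes 2 of 11 had an unadjusted p under 0.05, both lower, beside 1.97% of all tested genes in that direction. Irf9, the DNA-binding part of the interferon-activated complex, read 6.15 ± 0.20 in control and 5.79 ± 0.17 in silenced arrays. Its groups did not overlap (4.87% of all tested genes in that direction), and the difference was -0.36 ± 0.13 (SE, limma adjusted p = 0.871). The other was Irf7, the amplifier of interferon production, at 4.93 ± 0.51 and 4.34 ± 0.17 with overlapping groups, named after its values were seen. The count depended on single arrays: without control replicate 2, without control replicate 3 or without silenced replicate 3, 0 of the 11 had such a p. Without silenced replicate 1 there was 1, beside 806 of all tested genes. The signal carriers Jak1 (9.61 ± 0.11 and 9.68 ± 0.04), Jak2 (7.50 ± 0.16 and 7.59 ± 0.03) and Stat3 (9.34 ± 0.01 and 9.41 ± 0.08) differed by 0.073, 0.089 and 0.066.

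Of 13 pattern and cytokine receptors, 6 had a lower and 7 a higher mean and 0 an unadjusted p under 0.05. Ddx58, the sensor of viral RNA known as RIG-I, had a control mean of 7.49 ± 0.21 and a silenced mean of 7.25 ± 0.10 (limma adjusted p = 0.871). Tnfrsf1a, the main TNF receptor, read 8.85 ± 0.10 and 9.05 ± 0.06 (limma adjusted p = 0.871). Its groups did not overlap, beside 6.94% of all tested genes in that direction. Ifngr2 read 9.27 ± 0.05 and 9.20 ± 0.07. In the blocked fit 4 of the 13 had an unadjusted p under 0.05, all lower: Tlr2, Tlr4, Ifih1 and Ddx58, beside 10.3% of all tested genes in either direction. Their adjusted p in that limma fit was 0.464 to 0.471. In the unblocked fit 3 of the 13 had an unadjusted p under 0.05 without control replicate 1, beside 828 of all 11292 tested genes. There were also 3 without both arrays numbered 1 (1160 of all) and 1 without control replicate 2 (401 of all). With the 60th percentile filter, with arrays centred on their medians or with a trended, robust variance prior there was 1 (beside 441, 523 and 591 genes). Among 12 genes for shedding, binding and mRNA decay of the ligands, 0 had an unadjusted p under 0.05 in either fit. The sheddase Adam17 differed by 0.050, with an unadjusted limma p of 0.508. Its groups did not overlap, beside 6.94% of all tested genes in that direction. The matrix protease Mmp2, which can cleave Cxcl12, read 11.00 ± 0.22 and 11.04 ± 0.31, and the proteoglycan Sdc2 read 10.33 ± 0.20 and 10.33 ± 0.21. Zfp36l1 and Zfp36l2, which promote decay of AU-rich mRNAs, differed by 0.19 ± 0.12 (SE) and -0.088 ± 0.11 (SE).

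**Figure D4:**
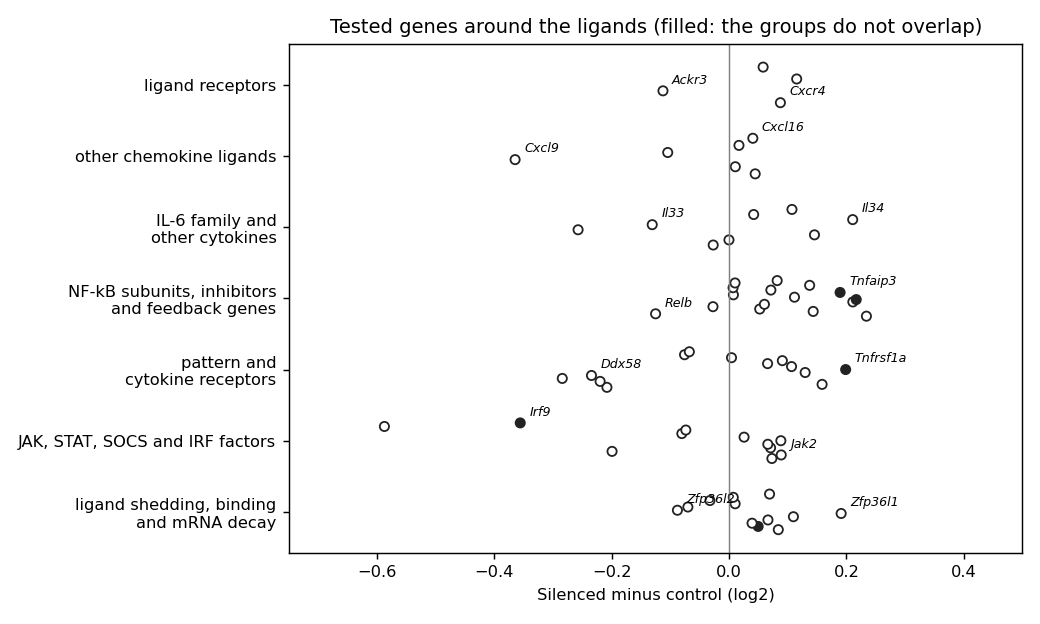
Silenced minus control difference in log2 units (x axis) of each tested gene of 7 lists around the ligands (y axis), with filled points for genes whose groups do not overlap and names for the gene with the smallest p in each direction. Filled points are Tnfaip3 (0.19) and Nfkbiz (0.22) of the NF-kB list, Tnfrsf1a (0.20), Irf9 (-0.36) and Adam17 (0.050). Over all tested genes, the groups did not overlap for 4.87% (silenced lower) and 6.94% (silenced higher).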

How the data were processed

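Total RNA of 3 silenced and 3 control samples of C2C12 was hybridised to Affymetrix arrays that cover whole transcripts. The deposited log2 values of 35556 probe sets were made by the authors with RMA, per the submitters' processing notes; the sources used here do not give its version or the probe set definition. This method subtracts a modelled background, equalizes the arrays and summarizes probes, which narrows differences of dim genes. Gene names are those of GEO's platform annotation (21218 with 1 gene, 1881 with several, 12457 not listed), and 11292 of 18820 genes lay above the 40th percentile of mean level. Limma 3.58.1 in R 4.3.3 (lmFit, eBayes, 2-sided, no covariate) compared the groups over all of these and was tested on simulated data. The simulated shifts were larger than any difference of the chemokine and Il6 genes, and same-numbered arrays shared no variation there. That test therefore does not show how well differences of the size seen here are found. Precision is limited by having 6 arrays, and no probe signals or detection calls were used.

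The 10 genes and the lists were chosen with earlier results of these data known. Besides the 10, the text names, per list, the gene with the smallest p in each direction and the 2 with the highest level, and the 3 genes most like the mean profile; others are Il6ra, genes of counts of 5 or fewer, and genes said to be below the filter, named after their values were seen. Promoters and the miRNA come from RefSeq (GRCm38.p6). Deviations from the group mean correlated between same-numbered arrays at 0.55, 0.35 and 0.42. The numbers, which come from the sample titles, were therefore treated as pairs in the blocked fit and in the differences within replicate numbers. That choice rests on these correlations and not on a label. The main fit did not use the pairs, so its SEs, confidence intervals and p-values ignore them. Levels of the 10 genes are not ranked against each other, since probe sets differ in affinity. For the same reason, markers and receptors set above or below the filter, and genes named for a high level, give only a rough order of abundance. Alternatives were the replicate block, other filters, normalizations, variance priors and probe set summaries, and leaving out arrays.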

Additional observations from a re-analysis of the deposited data

How the results depend on the processing

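Over 14 alternatives, 0 genes and 0 of the 10 were called at an adjusted p under 0.05. The directions of Ccl5, Ccl8, Cxcl10 and Il6 were kept in every alternative that tested them, and those of the other 6 reversed in at least 1. The adjusted p of Ccl8 lay between 0.392 and 1.000 and its unadjusted p between 0.000222 and 0.00160. An unadjusted p under 0.05 was found for 542 genes and 1 of the 10. With the replicate block these were 1168 and 2, and without a filter 834 of the 18820 genes then tested and 1 of the 10. With the 60th percentile filter they were 441 genes and 0 of the 10. Of the 10, Ccl7 and Cxcl12 alone passed that filter, so Ccl8 was not tested there. Without both arrays numbered 1 they were 1160 genes and 1 of the 10. Leaving out 1 array gave 272 to 828 genes, the lowest without control replicate 3 and the highest without control replicate 1, and 1 to 2 of the 10, with 2 without control replicate 1 (Cxcl10 added) or silenced replicate 2 (Ccl5 added). Leaving out 1 array moved the differences from -0.092 to 0.12 for Ccl2, -0.20 to 0.059 for Ccl7, -0.14 to 0.10 for Cxcl5, -0.13 to 0.11 for Cxcl12 and -0.096 to 0.015 for Cx3cl1. Without both arrays numbered 1 Ccl2 was at -0.0024 and Cxcl1 at 0.026. The cause of these shifts was not tested. With the replicate block no call at the adjusted threshold changed.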

Other observations

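Between Ccl7 and Ccl8 on chromosome 11 lie Ccl11 and Ccl12, and Ccl1 follows Ccl8; all 3 were below the level filter. Ccl11, the eosinophil attractant eotaxin, read 3.86, 3.64 and 3.60 in control and 3.18, 3.32 and 3.57 in silenced arrays. The groups did not overlap, but only narrowly (3.60 against 3.57). The share in that direction was 4.87% of all tested genes, a set that lies above the filter and leaves out Ccl11. Within replicate numbers 1, 2 and 3 Ccl11 differed by -0.68, -0.32 and -0.032. In the fit without a filter its difference was -0.34 ± 0.13 (SE, limma adjusted p = 0.936). Ccl12 read 2.39 ± 0.15 and 2.60 ± 0.09 and Ccl1 read 2.96 ± 0.06 and 3.06 ± 0.09. All 3 genes lie at levels where differences are narrowed, and values this dim give no direction. For Mir382, the gene of the miRNA precursor, the control mean was 1.81 ± 0.15 and the silenced mean 2.18 ± 0.17; this probe set does not measure the mature miRNA and gives no check of the silencing.

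Of the 6 myotube markers, 2 had an unadjusted p under 0.05, with limma adjusted p = 0.871. Both were higher in silenced arrays, beside 2.83% of all tested genes in that direction. Myh3, the embryonic myosin heavy chain, had a silenced mean higher by 0.26 ± 0.08 (SE) and the fusion gene Mymk by 0.22 ± 0.08 (SE), both with non-overlapping groups (6.94% of all tested genes in that direction). The other 4, Acta1, Ckm, Tnnt3 and Myog, differed by 0.055, 0.034, 0.016 and -0.040. The 3 myoblast markers did not share a direction: Pax7 differed by 0.22, with non-overlapping groups, Cdh15 by 0.12 and Myf5 by -0.21. Of these 3, Pax7 alone had an unadjusted p under 0.05, with limma adjusted p = 0.871. Of the leukocyte markers, Cd68 differed by 0.36 ± 0.22 (SE), with overlapping groups, and Cd14 by 0.0079. In the blocked fit Myh3, Mymk, Pax7, Cd68 (all higher) and Myf5 (lower) had an unadjusted p under 0.05. The share of all tested genes in that fit was 10.3% in either direction. Below the filter, Cd3e differed by 0.076, Ptprc by -0.0019, Csf1r by -0.036, Adgre1 by -0.066 and Itgam by -0.19. The relation of these markers to the chemokine levels was not tested.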
